A study of Mus musculus with 9 samples.

Results

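The genes described here encode interferon-inducible GTPases of mouse liver: 5 guanylate-binding proteins (Gbp2, Gbp3, Gbp4, Gbp5 and Gbp7) and 4 immunity-related GTPases (Igtp, Irgm1, Irgm2 and Iigp1). They were chosen by gene name and were found as 9 of the 42188 genes in the deposited table, and all 9 were among the 14603 genes that passed the filter on low counts. Liver RNA had been sequenced from 9 mice in 3 groups of 3. MSA_ConA mice were injected intraperitoneally with MSA at 250 mg/kg and, 6 h later, with concanavalin A at 20 mg/kg into the tail vein, ConA mice received that dose of concanavalin A alone, and Control mice received phosphate-buffered saline by the tail vein. Concanavalin A is a jack bean lectin whose binding to T cells sets off an immune-mediated hepatitis in mice, and MSA was read as mesaconate, which the title of the study names. Livers were taken 12 h after concanavalin A. Every mouse was labelled as a wild-type male of the C57BL/6 strain (C57BL/6J in the growth protocol), 8 weeks old and weighing 20 to 25 g.

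Guanylate-binding proteins and immunity-related GTPases belong to the dynamin-like GTPases that cells make in response to interferon gamma, and mice depend on them for defence inside the cell against bacteria and protozoa. Interferon gamma binds a receptor that signals through JAK kinases, and the transcription factor IRF1, itself made in response, takes part in switching on the GTPase genes. Among the immunity-related GTPases, Igtp, Irgm1 and Irgm2 are regulators that sit on the cell's own membranes and hold the effectors in check, while effectors such as Iigp1 assemble on the vacuoles of parasites and break them. The guanylate-binding proteins follow onto such vacuoles and onto bacteria, and several of them promote inflammasome activation. In concanavalin A hepatitis, T and NKT cells release interferon gamma, to which hepatocytes and other liver cells respond.

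The 9 libraries divided by the number they carry within a group, and the division went against labels. Totals ran from 13294600 to 17276391 counts. Xist, the RNA of the inactive X chromosome in females, had 1 to 5 counts in the 3 libraries numbered 1 and 12820 to 20441 counts in the 6 numbered 2 or 3, although all are labelled male. Mup21, a urinary protein gene of male liver, had 2590 to 5076 counts in number 1 and 8 to 28 counts in the others. Nnt, a mitochondrial gene partly deleted in C57BL/6J, had 226 to 405 counts in number 1 and 3218 to 5160 counts in the others. Number and treatment are crossed, so each group holds 1 library numbered 1, and the results for the 9 genes are given with and without these 3 libraries. Libraries are called by their labels throughout, and the values of a group stand in the order of its numbers 1, 2 and 3. Hepatocyte markers summed to 97022 to 162760 CPM in every library (normalised read counts, scaled to library size with TMM factors of 0.571 to 1.26 that adjust for composition), so the label of liver held. In bulk tissue, fewer cells of a type and less RNA per cell cannot be told apart.

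The genes lie in a few clusters. In the C57BL/6NJ assembly whose coordinates the deposited table uses, Gbp5 (150743920 to 150778033), Gbp7 (150789894 to 150811964), Gbp3 (150826981 to 150840136) and Gbp2 (150889757 to 150908051) follow one another on the plus strand of chromosome 3. Gbp2b, a further guanylate-binding protein gene that is not one of the 9, ends 19 bases before Gbp2 begins. Gbp4 lies on the minus strand of chromosome 5 (111319079 to 111344997) and shares 25873 bases of its annotated span with Gbp8 on the same strand. Irgm1 (49334616 to 49344765, minus strand), Igtp (59659628 to 59674125) and Irgm2 (59667295 to 59689101, both plus strand) lie on chromosome 11, where the annotated spans of Igtp and Irgm2 overlap by 6831 bases. Of all 50-base stretches in the longest mouse transcripts of GENCODE M21, 12.3% of those in Igtp also occur in Irgm2, and 12.8% each of those in Gbp4 and Gbp7 occur in other genes. How the authors counted such reads is not given in the sources used, so a part of the counts of Igtp, Irgm2, Gbp4 and Gbp7 is uncertain. The shares were 7.30% for Irgm2, 4.79% for Gbp3, 3.19% for Iigp1, 2.07% for Gbp2, 0.898% for Gbp5 and 0.814% for Irgm1.

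The promoters of the members are shown because 2 elements of the interferon response can be read in them directly. Promoters of 7 of the 9 genes were read from RefSeq tables for GRCm38.p6, and those of Gbp4 and Iigp1 were not examined. The 250 bases before the first listed start are printed 5′ to 3′ on the strand of the gene, with motif matches in capitals. They come from Gbp5 chr3:142496684-142496933 (plus strand), Gbp7 chr3:142530086-142530335 (plus strand), Gbp3 chr3:142559794-142560043 (plus strand), Gbp2 chr3:142620413-142620662 (plus strand), Igtp chr11:58199306-58199555 (plus strand), Irgm2 chr11:58214727-58214976 (plus strand) and Irgm1 chr11:48871421-48871670 (minus strand). The motifs searched on both strands were the interferon-stimulated response element, ISRE, as 2 runs of GAAA with any 2 bases between them, and the gamma-activated site, GAS, as TTCNNNGAA.
Gbp5: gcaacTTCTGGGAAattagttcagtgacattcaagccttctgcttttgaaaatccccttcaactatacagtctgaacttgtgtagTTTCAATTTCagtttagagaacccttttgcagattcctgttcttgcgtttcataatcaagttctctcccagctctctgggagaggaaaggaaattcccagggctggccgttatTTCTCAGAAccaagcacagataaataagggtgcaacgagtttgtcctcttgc
Gbp7: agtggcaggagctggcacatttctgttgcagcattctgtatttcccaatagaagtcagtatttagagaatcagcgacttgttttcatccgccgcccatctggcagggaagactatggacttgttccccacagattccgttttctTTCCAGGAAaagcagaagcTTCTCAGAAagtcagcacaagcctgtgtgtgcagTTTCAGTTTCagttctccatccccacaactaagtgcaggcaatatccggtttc
Gbp3: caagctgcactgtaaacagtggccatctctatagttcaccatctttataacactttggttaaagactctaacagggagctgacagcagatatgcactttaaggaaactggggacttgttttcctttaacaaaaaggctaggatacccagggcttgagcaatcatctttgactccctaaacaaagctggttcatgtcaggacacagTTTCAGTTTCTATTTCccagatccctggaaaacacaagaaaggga
Gbp2: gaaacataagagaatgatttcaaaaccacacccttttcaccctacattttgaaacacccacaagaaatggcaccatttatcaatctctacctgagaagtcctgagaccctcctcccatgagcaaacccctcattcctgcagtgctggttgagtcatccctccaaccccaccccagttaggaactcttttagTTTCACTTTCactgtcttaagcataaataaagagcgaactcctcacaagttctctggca
Igtp: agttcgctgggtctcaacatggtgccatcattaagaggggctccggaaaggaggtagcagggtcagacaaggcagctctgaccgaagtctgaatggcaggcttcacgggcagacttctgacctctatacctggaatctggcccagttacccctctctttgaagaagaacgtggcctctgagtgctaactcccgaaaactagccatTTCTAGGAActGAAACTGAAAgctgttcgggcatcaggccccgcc
Irgm2: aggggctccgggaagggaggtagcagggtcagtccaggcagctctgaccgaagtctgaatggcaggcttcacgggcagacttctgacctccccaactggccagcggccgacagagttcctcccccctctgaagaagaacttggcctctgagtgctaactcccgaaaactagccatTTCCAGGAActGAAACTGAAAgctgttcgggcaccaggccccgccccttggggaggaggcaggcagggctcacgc
Irgm1: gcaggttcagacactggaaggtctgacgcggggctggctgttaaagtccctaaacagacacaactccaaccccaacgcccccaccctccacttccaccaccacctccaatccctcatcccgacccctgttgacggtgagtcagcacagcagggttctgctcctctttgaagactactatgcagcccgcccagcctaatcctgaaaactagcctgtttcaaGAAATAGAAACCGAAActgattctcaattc

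Each of the 7 promoters held an ISRE match in these 250 bases, where 3.06% of the 27025 genes in the RefSeq table held one before their own first listed start. Gbp3 alone among the 7 has a further listed start (chr3:142560106-142560355, plus strand), whose 250 bases held neither motif. In Gbp2, Gbp3, Gbp5 and Gbp7 the ISRE lay on the opposite strand to the gene, and in Igtp, Irgm1 and Irgm2 on the strand of the gene. Its distance from the start varied: the match began at position -165 in Gbp5, -64 in Irgm2, -59 in Gbp2, -53 in Gbp7, -45 in Gbp3, -34 in Igtp and -30 in Irgm1, counted from the start of transcription. Gbp3 and Irgm1 each held 2 ISRE matches that overlap one another. GAS matches occurred in 4 of the 7 promoters, Gbp5, Gbp7, Igtp and Irgm2, against 7.11% of all genes, and Gbp5 and Gbp7 held 2 each. No ISRE match overlapped a GAS match. The promoters of Igtp and Irgm2 were 90.2% identical over 215 aligned bases, with the GAS followed by the ISRE in the same arrangement. A match is a run of letters and does not show that a factor binds there.

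Outside number 1, the 3 regulators among the immunity-related GTPases were the most abundant of the 9 transcripts, and Iigp1 and Gbp5 were the least abundant. Levels of different genes are compared here per length, as the deposited FPKM, over the 6 libraries numbered 2 and 3 of all 3 groups. FPKM are fragments scaled by the gene length listed in the deposited data and by library size. That scaling lay near TMM and not near library totals. For ConA 1 over Control 1 the median log2 ratio was 0.050 with FPKM, 0.033 with TMM and -0.461 with library totals. Igtp had the highest level, at 26.1 ± 2.51 FPKM (SD, n = 6), followed by Irgm2 at 16.3 ± 2.58 FPKM and Irgm1 at 11.8 ± 1.37 FPKM, and this order held in each of the 6 libraries. It depends on the listed lengths, which are 1815 bases for Igtp, 3557 for Irgm2 and 5810 for Irgm1. Their longest GENCODE M21 transcripts have 2022, 3528 and 2259 bases. In CPM, with no length, Irgm1 came first at 69.9 on average, with Irgm2 at 58.7 and Igtp at 48.1. Gbp3 ranged from 4.02 to 7.66 FPKM, and averages were 4.25 ± 1.20 FPKM for Gbp7 and 3.19 ± 0.571 FPKM for Gbp2. These 3 genes overlapped one another. Gbp4 averaged 1.73 ± 0.428 FPKM and lay below Gbp2 in every one of the 6 libraries, with a listed length of 7356 bases against 1989. In CPM, with no length, Gbp4 averaged 12.9 and Gbp2 6.47, the reverse order. The effector Iigp1 averaged 0.721 ± 0.485 FPKM and Gbp5 0.336 ± 0.0921 FPKM, and these 2 overlapped. Iigp1 varied most for its mean among the 9, between 0.164 FPKM in ConA 3 and 1.46 FPKM in ConA 2. Gm4951, a related GTPase gene that is not one of the 9, ranged from 18.96 to 34.9 FPKM in the same 6 libraries, within and above the range of the regulators.

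The comparison of ConA with Control asks how lectin hepatitis changes liver transcripts. The library labelled ConA 1 held the highest level of all 9 libraries for 9 of the 9 genes, while ConA 2 and ConA 3 stayed near the Control libraries. ConA 1 was the highest library for 20.5% of the 14603 tested genes. Between ConA 1 and Control 1 the guanylate-binding protein genes Gbp2 and Gbp5 differed most among the 9 and the regulator Irgm2 least.

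Gbp2, whose protein in mice coats the vacuoles of Toxoplasma, measured 824, 6.795 and 5.51 CPM in the ConA libraries, against 3.28, 6.37 and 5.51 CPM in the Control libraries. Gbp5, which in mice promotes assembly of the NLRP3 inflammasome, measured 219, 1.70 and 2.73 CPM in the ConA libraries, against 1.19, 2.14 and 1.51 CPM in the Control libraries. For both genes 1 ConA library stood far above every Control library, and ConA 2 and ConA 3 lay within or close to the Control range. Gbp3, of the same chromosome 3 cluster, measured 331, 14.3 and 13.1 CPM in the ConA libraries, against 8.64, 17.8 and 13.6 CPM in the Control libraries. Gbp4, of the chromosome 5 cluster, measured 151, 11.3 and 12.8 CPM in the ConA libraries, against 11.0, 11.8 and 9.83 CPM in the Control libraries. The same single library was high for both, and ConA 2 lay within the Control range. Gbp7 measured 69.9, 22.0 and 22.1 CPM in the ConA libraries, against 5.66, 17.4 and 19.8 CPM in the Control libraries. It was the only one of the 9 whose 3 ConA libraries all lay above all 3 Control libraries, a pattern that 5.62% of tested genes showed.

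Among the regulators, Irgm1, whose loss leaves mice susceptible to mycobacteria, measured 680, 67.2 and 63.1 CPM in the ConA libraries, against 62.9, 63.9 and 66.7 CPM in the Control libraries. Igtp, a regulator at the endoplasmic reticulum also called Irgm3, measured 218, 48.0 and 39.97 CPM in the ConA libraries, against 46.3, 49.4 and 48.6 CPM in the Control libraries. Irgm2, a regulator at the Golgi, measured 94.6, 54.8 and 56.3 CPM in the ConA libraries, against 40.7, 50.6 and 54.9 CPM in the Control libraries. Control libraries of Irgm1 and Igtp lay close together, at 64.5 ± 1.98 CPM and 48.1 ± 1.61 CPM (SD, n = 3), and ConA 3 lay below all of them for Igtp. The effector Iigp1 measured 52.3, 4.74 and 0.511 CPM in the ConA libraries, against 2.01, 0.991 and 1.61 CPM in the Control libraries. Its ConA libraries spread on both sides of the Control range, with ConA 2 above it and ConA 3 below it on 9 counts.

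**Figure D1:**
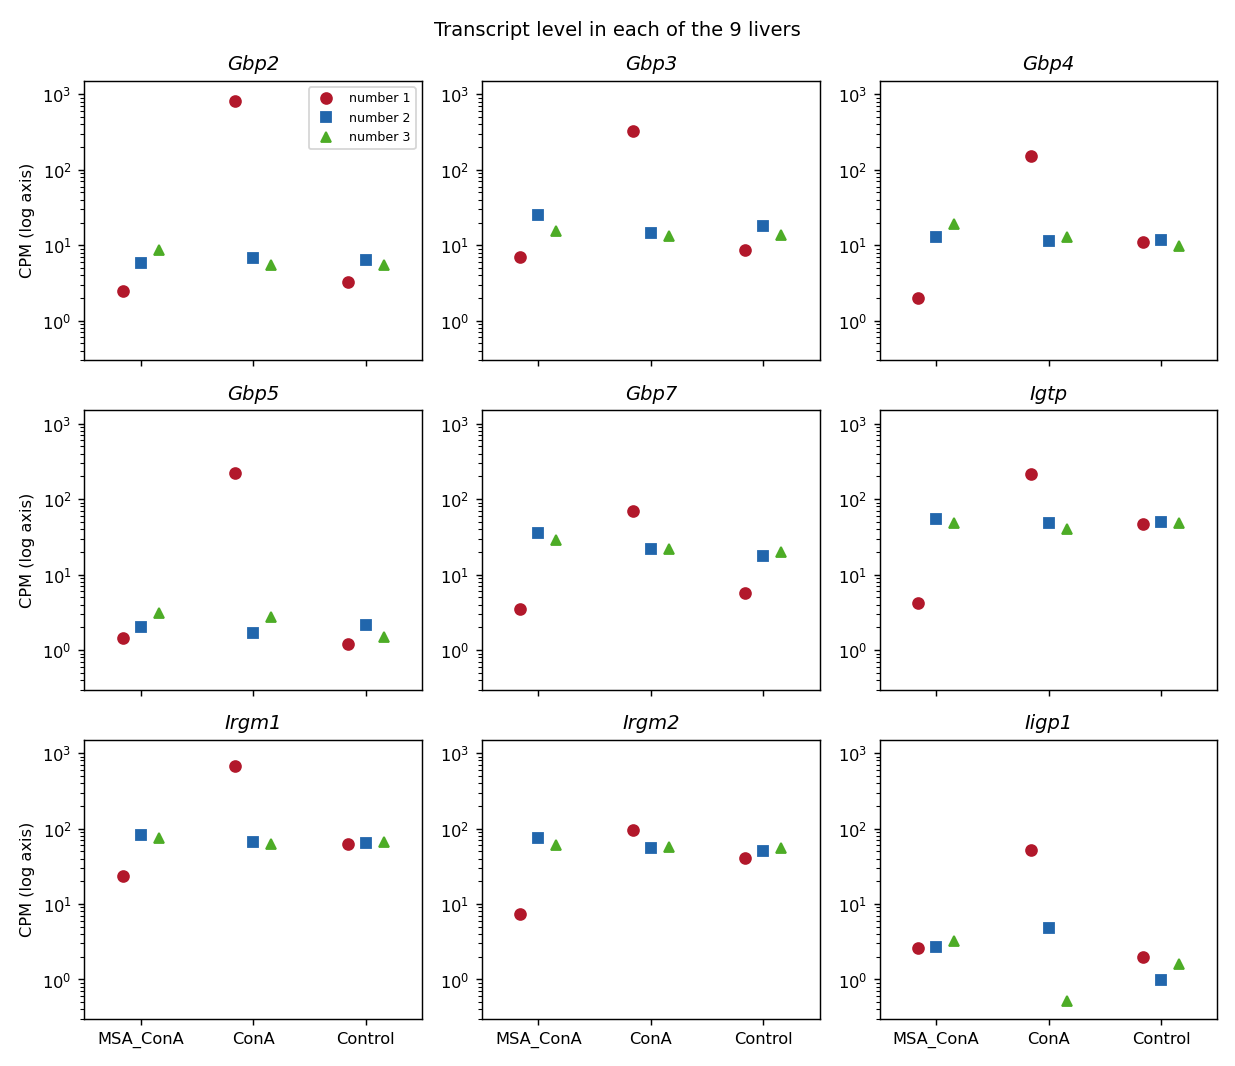
Each panel plots the level of 1 gene in CPM (log axis) in the libraries labelled MSA_ConA, ConA and Control, with 1 point per library and the library number as colour and shape. The red ConA 1 point is the highest of the 9 in each panel, and the red MSA_ConA 1 point is the lowest in 7 of 9, while points numbered 2 and 3 lie together for most genes.

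Set as ratios of CPM + 1, the level in ConA 1 was at least 4-fold that in Control 1 for 8 of the 9 genes, all but Irgm2, against 6.46% of tested genes. With 1 library per group this has no replicate check. The folds that follow are plain ratios of CPM, with no 1 added, and their 95% limits are exact limits on the ratio of 2 counts that cover counting error only. Gbp2 was 251-fold higher (187 to 346) and Gbp5 184-fold (113 to 322). Gbp3 was 38.3-fold higher (31.8 to 46.5), Gbp4 13.7-fold (11.6 to 16.3) and Gbp7 12.4-fold (9.75 to 15.9). Iigp1 was 26.03-fold higher (17.7 to 39.9), Irgm1 10.8-fold (10.1 to 11.6), Igtp 4.71-fold (4.31 to 5.15) and Irgm2 2.32-fold (2.09 to 2.58). The limits of Gbp7 and Irgm1 overlapped. None of the 9 was 4-fold higher in number 2 or number 3, as 0.616% and 0.103% of tested genes were. ConA was below Control for 4 of the 9 genes in number 2 (47.7% of tested genes) and for 5 in number 3 (49.5%), or for 3 in number 3 with library totals.

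With all 9 libraries in 1 fit, ConA against Control gave no call among the 9 genes by edgeR, nor among all 14603 tested (0%; 563 at an unadjusted p under 0.05, 0 by limma-voom and 2 by DESeq2). DESeq2 gave no p in any of the 3 group comparisons for Gbp2, Gbp3, Gbp5 and Irgm1, which it could therefore not call, and called none of the other 5. All 9 log2 fold changes were above 0, with a median of 2.42 beside 0.07 over all tested genes. They ranged from 0.49 (SE 0.67) for Irgm2 to 5.78 (SE 1.84) for Gbp2 (edgeR adjusted p = 0.9997 for all 9). Leaving out the library labelled ConA 1 took the value of Gbp2 to 0.28 and that of Igtp to -0.13. In the 6 libraries numbered 2 and 3 alone, 6 of the 9 were higher in ConA, against 51.0% of all genes, their median was 0.06 beside 0.01, and 0 of 14851 genes passed by edgeR (0%; 1725 at an unadjusted p under 0.05). Both ConA libraries lay above both Control libraries there for 1 gene, Gbp7, against 23.5% of tested genes.

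A direct test asked whether number 1 responded differently from the others, in an edgeR model with 1 mean per group and number class. At an adjusted p under 0.05 (Benjamini-Hochberg) the effect of ConA was larger in number 1 for 8 of the 9, where 15.7% of tested genes were called in that direction. The difference was 7.92 on the log2 scale for Gbp2 (SE 0.44, adjusted p = 0.000185 by edgeR) and 7.25 for Gbp5 (SE 0.56, adjusted p = 0.00035). It was 5.46 for Gbp3, 3.62 for Gbp4, 3.44 for Irgm1, 3.38 for Gbp7 and 2.39 for Igtp, with edgeR adjusted p from 0.000288 to 0.00124. It was smallest for Irgm2, at 1.14 (SE 0.27, adjusted p = 0.0181 by edgeR), a call that was lost with library totals in place of TMM (adjusted p = 0.0796) and without Control 3, ConA 2 or ConA 3 (adjusted p from 0.0516 to 0.0631). Iigp1 was not called, at 3.68 (SE 1.36, adjusted p = 0.0771 by edgeR), and was called without ConA 2 at 6.02 or without ConA 3 at 2.82. With 3 residual degrees of freedom, this model takes a lone library numbered 1 to vary like the others.

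The comparison of MSA_ConA with ConA asks what MSA given beforehand changed. In number 1 the transcripts of all 9 genes were far lower in the library labelled MSA_ConA 1 than in ConA 1, and 7 of the 9 had their lowest level of all 9 libraries in MSA_ConA 1, where 24.4% of tested genes had theirs. In numbers 2 and 3 differences were small and mostly in the opposite direction; Gbp2 and Iigp1 were lower in MSA_ConA 2 than in ConA 2.

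Gbp2 measured 2.502, 5.87 and 8.75 CPM in MSA_ConA, against 824, 6.795 and 5.51 CPM in ConA, and MSA_ConA 3 lay above ConA 2 and ConA 3. Gbp5 measured 1.45, 2.05 and 3.09 CPM in MSA_ConA, against 219, 1.70 and 2.73 CPM in ConA. Gbp3 measured 6.98, 25.0 and 15.6 CPM in MSA_ConA, and Gbp4 measured 1.98, 12.7 and 19.3 CPM. For Gbp3, MSA_ConA 2 and MSA_ConA 3 both lay above ConA 2 and ConA 3, and for Gbp4 MSA_ConA 2 lay between these 2 ConA libraries. Gbp7, which in mice has been linked to delivery of NADPH oxidase and autophagy proteins to bacteria, measured 3.56, 35.6 and 28.4 CPM in MSA_ConA, against 69.9, 22.0 and 22.1 CPM in ConA. Its 3 MSA_ConA libraries thus lay on both sides of ConA 2 and ConA 3.

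Igtp measured 4.21, 54.0 and 48.4 CPM in MSA_ConA, against 218, 48.0 and 39.97 CPM in ConA. Irgm1 measured 23.3, 82.7 and 75.8 CPM in MSA_ConA, and Irgm2 measured 7.37, 75.4 and 60.1 CPM. For all 3 regulators MSA_ConA 1 was the lowest of the 9 libraries, and for each of them MSA_ConA 2 and MSA_ConA 3 both lay above ConA 2 and ConA 3. Iigp1 measured 2.63, 2.71 and 3.24 CPM in MSA_ConA, a range that lay between ConA 3 and ConA 2. It and Gbp5 were the 2 genes whose lowest library was not MSA_ConA 1.

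Between the libraries numbered 1, 9 of the 9 genes were at least 4-fold lower in MSA_ConA than in ConA as ratios of CPM + 1, against 4.47% of tested genes. As plain ratios of CPM, Gbp2 was 329-fold lower (211 to 547), Gbp5 151-fold (84.4 to 303) and Gbp4 76.4-fold (46.2 to 137). Igtp was 51.8-fold lower (36.6 to 75.9), Gbp3 47.4-fold (36.2 to 63.4) and Irgm1 29.2-fold (25.1 to 34.0). Iigp1 was 19.9-fold lower (12.7 to 32.8), Gbp7 19.7-fold (13.4 to 30.1) and Irgm2 12.8-fold (9.80 to 17.1). Gbp2 rests on 19 counts and Gbp5 on 11 counts in MSA_ConA 1, so their limits are wide.

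**Figure D2:**
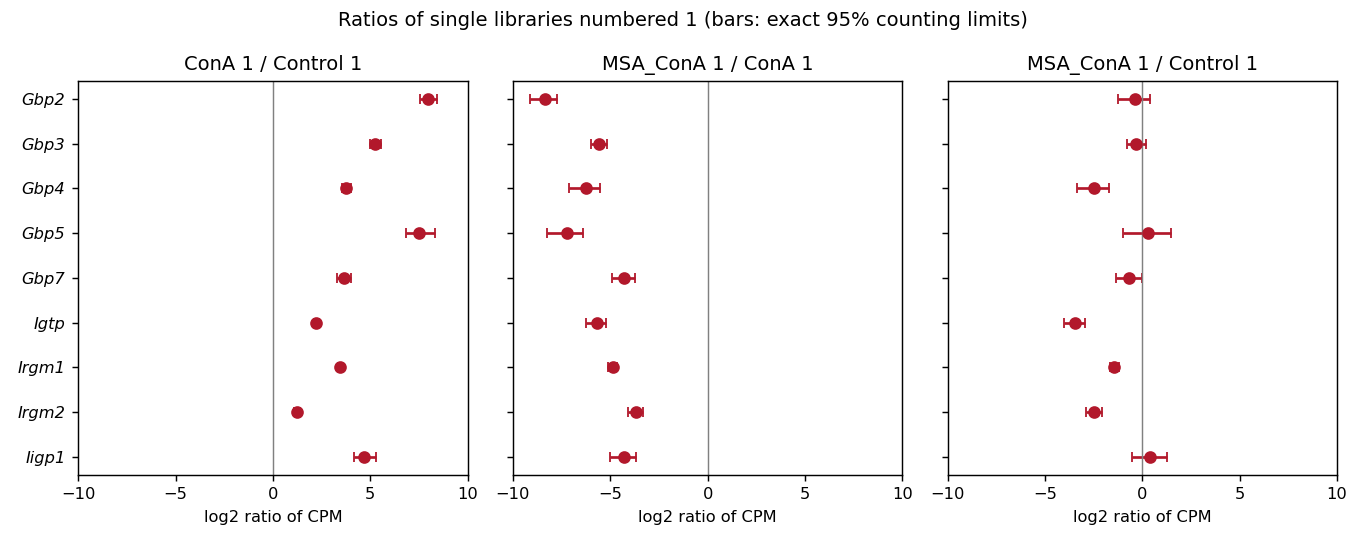
The 3 panels plot log2 ratios of CPM between single libraries numbered 1, for ConA 1 over Control 1, MSA_ConA 1 over ConA 1 and MSA_ConA 1 over Control 1, with bars for exact 95% limits that cover counting error only. All 9 points lie above 0 in the first panel and below 0 in the second, and for MSA_ConA 1 over Control 1 the bars of Gbp2, Gbp3, Gbp5 and Iigp1 cross 0.

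Over all 9 libraries 0 of 14603 genes passed between MSA_ConA and ConA by edgeR (0%; 248 at an unadjusted p under 0.05, and 0 by limma-voom and by DESeq2, which gave no p for 4 of the 9). All 9 members had log2 fold changes below 0, with a median of -2.35 beside 0.02 over all tested genes, from -0.52 (SE 0.67) for Irgm2 to -5.60 (SE 1.83) for Gbp2 (edgeR adjusted p = 0.9999 for all 9). In the test of the difference by number, MSA_ConA against ConA was lower in number 1 for 8 of the 9 genes, where 10.1% of tested genes were called in that direction. The difference was -8.61 for Gbp2, -7.46 for Gbp5, -6.66 for Gbp4, -6.13 for Gbp3, -5.91 for Igtp, -5.15 for Irgm1, -4.83 for Gbp7 and -3.97 for Irgm2, with edgeR adjusted p from 0.000262 to 0.000573. Iigp1 was not called, at -4.48 (SE 1.36, adjusted p = 0.0591 by edgeR), and was called without ConA 2 at -6.84 or without ConA 3 at -3.64.

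The 6 libraries numbered 2 and 3 show the same comparison without the 3 libraries that stand apart. There all 9 genes had a log2 fold change above 0 for MSA_ConA against ConA, where 51.7% of 14851 genes did, with a median of 0.30 beside 0.01 over all genes. No member and no other gene passed (0%; 767 at an unadjusted p under 0.05, all by edgeR). The highest values were 0.58 (SE 0.25) for Gbp3 and 0.55 (SE 0.16) for Gbp7 (edgeR adjusted p = 0.929 for both). For 5 of the 9 genes, Gbp3, Gbp7, Igtp, Irgm1 and Irgm2, both MSA_ConA libraries lay above both ConA libraries, against 16.2% of tested genes. Libraries of this comparison also differed in skeletal muscle transcripts, whose 8 markers summed to 284 and 4024 CPM in MSA_ConA 2 and 3 and to 266 and 47.9 CPM in ConA 2 and 3. The part of muscle transcripts in these differences was not tested.

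**Figure D3:**
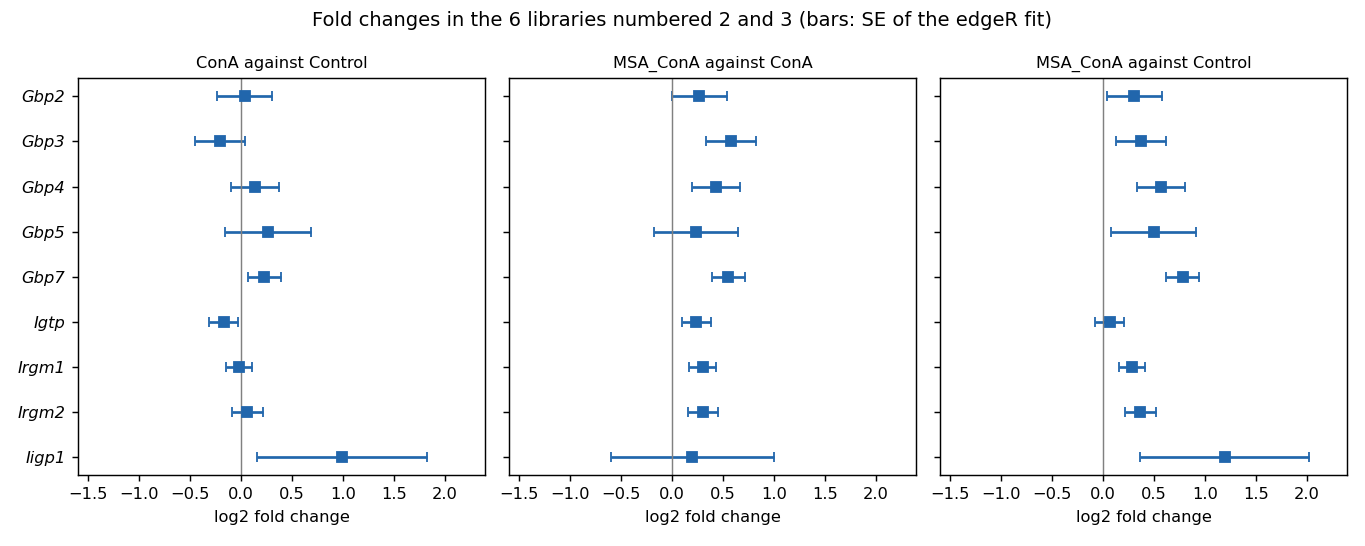
Each point is the log2 fold change of 1 gene in the 6 libraries numbered 2 and 3, from an edgeR fit, with bars of 1 SE, for ConA against Control, MSA_ConA against ConA and MSA_ConA against Control. All 9 points lie above 0 in both panels for MSA_ConA, with medians of 0.30 and 0.37, and none passed the test.

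MSA_ConA and Control differed in 2 ways that depended on the number. This comparison shares its libraries with both others, so its values are not independent of theirs. In number 1, regulators and Gbp4 were lower in MSA_ConA than in Control, and in numbers 2 and 3 all 9 genes leaned higher. As a plain ratio of CPM, Igtp was 11.0-fold lower in MSA_ConA 1 than in Control 1 (7.71 to 16.2), at 4.21 CPM against 46.3 CPM. Gbp4 was 5.58-fold lower (3.28 to 10.2), Irgm2 5.52-fold (4.19 to 7.41), Irgm1 2.70-fold (2.29 to 3.19) and Gbp7 1.59-fold (1.014 to 2.57). The first 3 of these were at least 4-fold lower as ratios of CPM + 1, against 4.46% of tested genes. For Gbp2 (1.31-fold lower) and Gbp3 (1.24-fold lower) the limits spanned 1. Gbp5 (ratio 1.22, 0.510 to 2.79) and Iigp1 (ratio 1.31, 0.696 to 2.42) were higher with TMM scaling, with limits that spanned 1, and lower with library totals, at ratios of 0.731 and 0.788. Library totals in place of TMM move the median log2 ratio of all genes in number 1 by -0.73 for this comparison, -0.49 for ConA against Control and -0.24 for MSA_ConA against ConA.

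Over all 9 libraries 0 of 14603 genes passed by edgeR (0%; 730 at an unadjusted p under 0.05, 0 by limma-voom, and 55 by DESeq2, which called none of the 5 members it gave a p for). The fold changes of the members were small beside their errors, with 6 of 9 above 0 and a median of 0.18 beside 0.07 over all genes. In the test of the difference by number, 5 of the 9 genes were lower in number 1, where 16.6% of tested genes were called in that direction. These were Igtp at -3.52 (SE 0.30, adjusted p = 0.000564 by edgeR), Gbp4 at -3.04 (adjusted p = 0.00397), Irgm2 at -2.83 (adjusted p = 0.00111), Irgm1 at -1.71 (adjusted p = 0.00311) and Gbp7 at -1.45 (adjusted p = 0.0173). Gbp2 (-0.69), Gbp3 (-0.67), Iigp1 (-0.80) and Gbp5 (-0.22) were not called.

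In numbers 2 and 3, 9 of the 9 genes were higher in MSA_ConA than in Control, where 53.0% of all genes were, with a median log2 fold change of 0.37 beside 0.04. Gbp7 measured 35.6 and 28.4 CPM in MSA_ConA 2 and 3, against 17.4 and 19.8 CPM in Control 2 and 3. Its log2 fold change was 0.78 (SE 0.16, adjusted p = 0.0823 by edgeR). No adjusted p among the 14851 genes was smaller, but genes can share a Benjamini-Hochberg value, so this does not rank Gbp7 first. The other log2 fold changes ran from 0.07 (SE 0.14) for Igtp to 1.19 (SE 0.83) for Iigp1. Both MSA_ConA libraries lay above both Control libraries for 5 of the 9 genes, Gbp4, Gbp7, Irgm1, Irgm2 and Iigp1, against 27.4% of tested genes. With number 1 included, all 3 MSA_ConA libraries lay above all 3 Control libraries for Iigp1 alone, against 6.40% of tested genes. No gene passed in numbers 2 and 3 (0%; 3578 at an unadjusted p under 0.05, by edgeR). Muscle markers summed to 1.88 and 0.728 CPM in Control 2 and 3, far below the MSA_ConA libraries of this fit, and their part in the result was not tested.

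The make-up of the family differed most in ConA 1. Summed over the 9 genes, the family came to 14.1, 85.2 and 72.8 FPKM in MSA_ConA, 869, 66.0 and 61.7 FPKM in ConA and 55.2, 65.4 and 65.2 FPKM in Control. In ConA 1, Gbp2 alone made up 48.0% of that sum, against 2.97% to 9.13% in the 8 other libraries. Igtp, the leading transcript in 7 libraries at 35.0% to 46.0% of the sum, made up 13.9% in ConA 1 and 16.9% in MSA_ConA 1. In MSA_ConA 1 the leading transcript was Irgm1, at 29.1%. Control 1 had the same first 3 transcripts as the 6 libraries numbered 2 and 3, Igtp, Irgm2 and Irgm1 in that order. These sums, shares and orders depend on the listed gene lengths.

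**Figure D4:**
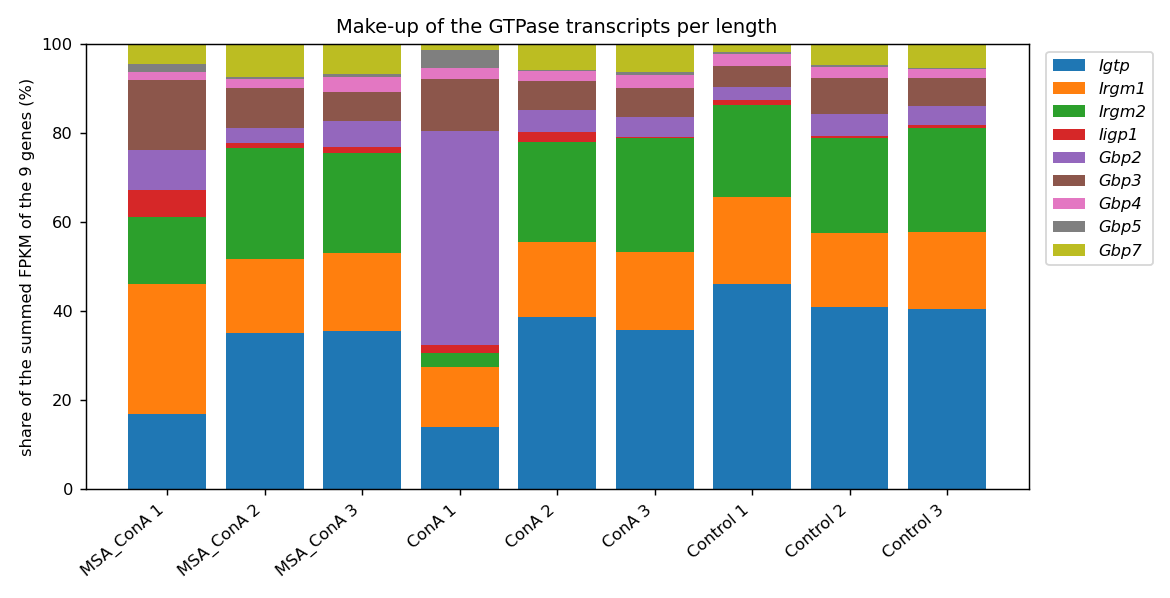
Stacked bars give the share of each gene in the summed FPKM of the 9 genes (percent, 0 to 100) in each library, with MSA_ConA on the left, ConA in the middle and Control on the right. Gbp2 fills 48.0% of the ConA 1 bar, and Igtp is the largest part of every bar except those of ConA 1 and MSA_ConA 1.

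Other GTPases of these families moved with the 9 in number 1, with exceptions. Of 25 listed relatives 11 were in the table and 9 were tested, and the effect of ConA was called larger in number 1 for 7 and smaller for 1, where 15.7% and 15.4% of all tested genes were called larger and smaller. Ifi47, an immunity-related GTPase also called Irgd, measured 804, 14.1 and 12.2 CPM in the ConA libraries, against 45.4, 13.5 and 14.6 CPM in the Control libraries (difference by number 4.25, adjusted p = 0.000401 by edgeR). The antiviral dynamin-like GTPase genes Mx1 and Mx2 had differences of 3.56 and 3.92, Gbp8 of 2.45, F830016B08Rik of 2.44, Gm4841 of 3.49 and Irgq of 1.74. Gm4951 was not called (0.84, adjusted p = 0.174 by edgeR). Gbp2b, the neighbour of Gbp2, was called in the other direction and measured 1.16, 8.96 and 7.49 CPM in the ConA libraries, against 4.69, 7.83 and 6.86 CPM in the Control libraries. It was 4.04-fold lower in ConA 1 than in Control 1 (2.16 to 8.23), and the difference by number was -2.17 (SE 0.51, adjusted p = 0.0175 by edgeR). Its 250 promoter bases in the RefSeq table (chr3:142594597-142594846, plus strand, GRCm38.p6) are printed here because these neighbours differ so widely in number 1, and they too hold an ISRE match on the opposite strand, with the same letters as in Gbp2 but beginning at position -137.
Gbp2b: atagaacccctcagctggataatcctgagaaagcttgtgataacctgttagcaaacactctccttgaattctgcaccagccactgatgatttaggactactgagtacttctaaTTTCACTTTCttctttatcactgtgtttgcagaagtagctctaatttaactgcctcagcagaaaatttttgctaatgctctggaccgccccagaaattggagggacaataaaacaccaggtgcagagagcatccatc

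For MSA_ConA against ConA, 8 of the 9 tested relatives were called lower in number 1 (10.1% of all tested genes), all except Gbp2b (-1.03, adjusted p = 0.309 by edgeR). Ifi47 had a difference of -6.90, Mx1 of -6.39, Gm4841 of -5.46, Gm4951 of -4.62, Gbp8 of -4.14, F830016B08Rik of -3.04, Mx2 of -2.77 and Irgq of -1.85. For MSA_ConA against Control, Gm4951 (-3.78), Gbp2b (-3.20), Mx1 (-2.83), Ifi47 (-2.66) and Gbp8 (-1.69) were called lower and Mx2 was called higher (1.15, adjusted p = 0.0476 by edgeR), where 16.6% and 16.0% of all tested genes were called lower and higher. Mx2 measured 51.0 CPM in MSA_ConA 1, against 17.1 CPM in Control 1, so it stood 2.99-fold higher (2.53 to 3.53) where Mx1 stood 6.50-fold lower (3.17 to 15.5). No relative passed in the fits on all 9 libraries or on numbers 2 and 3, where their median log2 fold changes for ConA against Control were 2.12 and 0.07.

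Interferon gamma signalling, which can induce these genes, was read from 16 genes, all in the table and 15 of them tested. Its part in the levels of the GTPase genes in these livers was not tested. The ligand was scarce: Ifng had 28 counts in ConA 1 (2.71 CPM), 7 counts in Control 1 (0.521 CPM) and none in MSA_ConA 1, where 0 counts allow up to 0.395 CPM. In ConA 2 and ConA 3 it measured 0.309 and 0.0568 CPM. The effect of ConA was called larger in number 1 for 11 of the 15 tested genes (15.7% of all tested genes) and smaller for none (15.4%). The transcription factor Irf1 measured 1743, 37.4 and 37.9 CPM in the ConA libraries, against 44.1, 47.6 and 46.9 CPM in Control, with a difference by number of 5.64 (adjusted p = 0.000231 by edgeR). Its log2 fold change was 3.72 over all 9 libraries and -0.34 in numbers 2 and 3. Irf8, a partner of IRF1 at ISRE sites, had a difference of 4.74, and the feedback inhibitors Socs1, Socs3 and Ptpn2 had differences of 9.15, 6.58 and 3.67. The receptor chains Ifngr1 and Ifngr2 (1.49 and 1.45), the kinases Jak1 and Jak2 (1.24 and 2.66), Nlrc5 (1.54) and Batf2 (3.01) were called too. No gene of this list passed in the fit on all 9 libraries or in that on numbers 2 and 3, where the median log2 fold changes for ConA against Control were 0.86 and -0.21.

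In number 1, Irf1, Irf8 and the inhibitor Socs1 were lower in MSA_ConA against ConA, and 3 inhibitors were higher against Control. For MSA_ConA against ConA 8 of the 15 were called lower in number 1 (10.1% of all tested genes), among them Irf1 (-6.69), Irf8 (-4.81), Batf2 (-4.55), Socs1 (-4.44), Jak2 (-2.46), Ifngr2 (-1.49) and Ciita, which had no count in MSA_ConA 1. Against Control, Irf9 (-0.98) and Ciita were called lower in number 1, and the inhibitors Socs3 (6.45), Socs1 (4.71) and Ptpn2 (3.29) were called higher, with edgeR adjusted p from 0.000432 to 0.0482. Neither Irf1 (-1.05, adjusted p = 0.0544 by edgeR) nor Irf8 (-0.07, adjusted p = 0.902) was called against Control. In numbers 2 and 3 alone, the log2 fold changes of MSA_ConA against Control were -0.82 for Socs3, 0.18 for Socs1 and -0.02 for Ptpn2, and none passed. Socs3, which restrains signalling through JAK kinases, measured 891 CPM in MSA_ConA 1, 1324 CPM in ConA 1 and 17.9 CPM in Control 1, and 2.99 to 7.54 CPM in the 6 other libraries. Socs1 measured 15.7 CPM in MSA_ConA 1, 175 CPM in ConA 1 and, on 7 counts, 0.521 CPM in Control 1. Ptpn2, a phosphatase that acts on JAK kinases, measured 110.6 CPM in MSA_ConA 1, 140 CPM in ConA 1 and 11.5 CPM in Control 1. All 3 inhibitors were thus above Control 1 in MSA_ConA 1, which had the lowest levels of 7 of the 9 GTPase genes, and higher still in ConA 1, which had the highest levels of all 9. The part of the inhibitors in those levels was not tested.

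**Figure D5:**
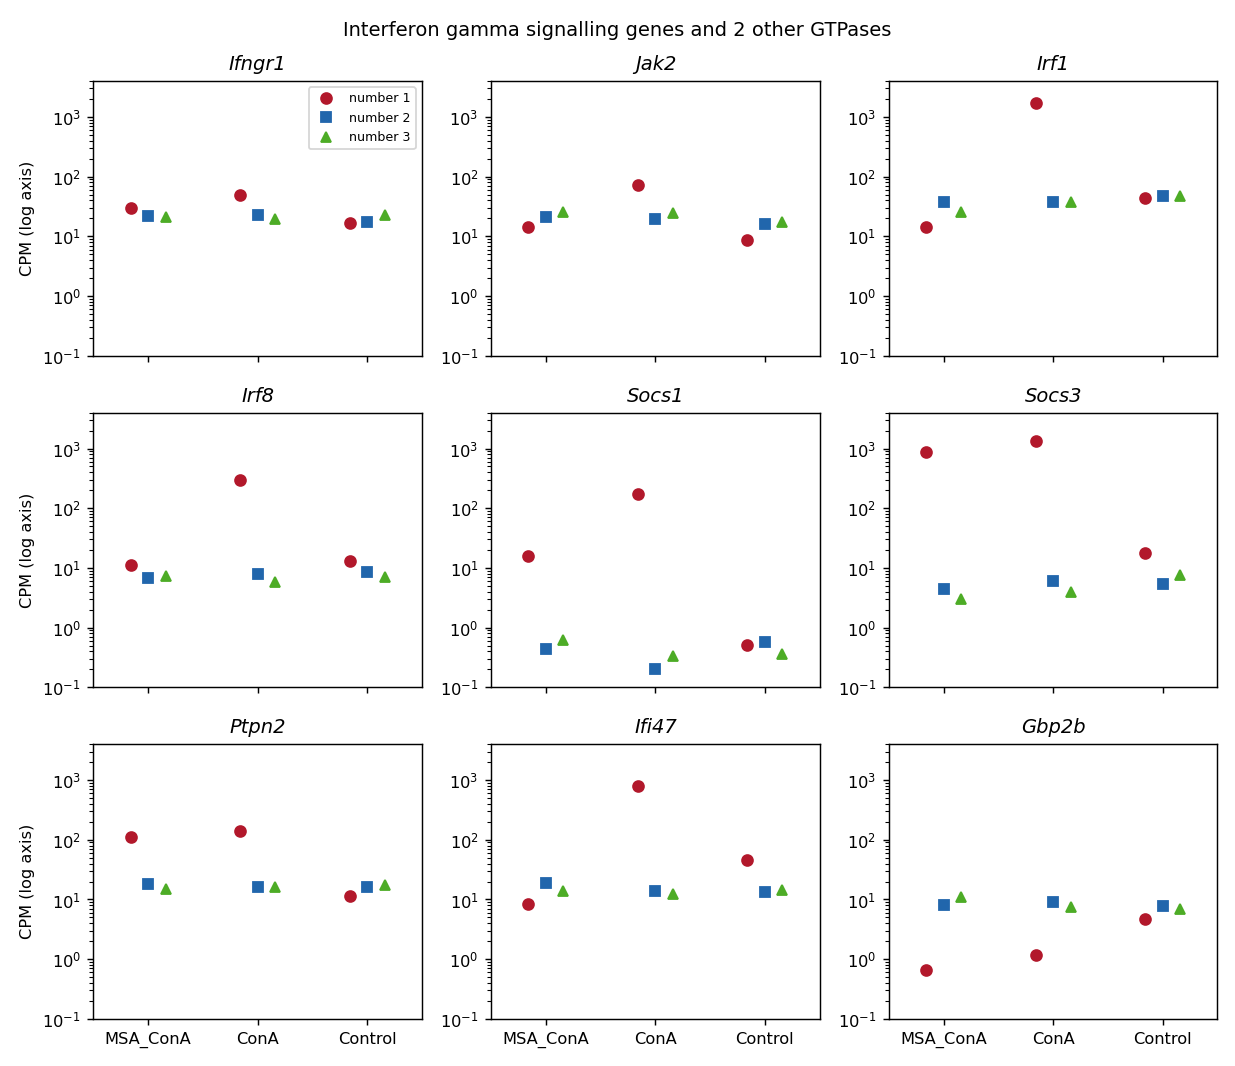
Each panel plots CPM (log axis) of a gene of interferon gamma signalling, or of the GTPase genes Ifi47 and Gbp2b, in the libraries labelled MSA_ConA, ConA and Control, with the library number as colour and shape. Irf1, Irf8 and Ifi47 peak in ConA 1 as the 9 members do, Socs3 is high in both MSA_ConA 1 (891 CPM) and ConA 1 (1324 CPM), and Gbp2b is low in both.

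Genes that act with the GTPase proteins were called in number 1 in both directions. Of 8 inflammasome genes, the effect of ConA was called larger in number 1 for 4, Casp4 (4.71), Nlrp3 (4.93), Il1b (2.94) and Gsdmd (1.43), and MSA_ConA against ConA was called lower there for the same 4, at -2.95, -2.94, -3.02 and -3.31. Of all tested genes, 15.7% were called larger for ConA against Control and 10.1% lower for MSA_ConA against ConA. Gsdmd, the pore protein of pyroptosis, measured 15.9 CPM in MSA_ConA 1, 135 CPM in ConA 1 and 70.9 CPM in Control 1, and was lower against Control too (-1.88, adjusted p = 0.00391 by edgeR), while Casp4 was higher (1.75). No inflammasome gene passed in the fit on all 9 libraries or in that on numbers 2 and 3, where the median log2 fold changes for ConA against Control were 0.09 and -0.13. Of 15 partners that place the proteins on vacuoles, mostly autophagy genes, 13 were tested. For ConA against Control the effect in number 1 was called larger for Sqstm1 (2.82), Atg12 (1.70), Traf6 (1.504) and Gabarapl2 (1.12) and smaller for Ube2l3 (-1.74) and Atg5 (-1.32). For MSA_ConA against ConA it was larger for Ube2l3 (1.32) and Gabarap (1.15) and smaller for Sqstm1 (-2.15). For MSA_ConA against Control it was larger for Map1lc3a (1.93), Traf6 (1.86), Atg12 (1.75), Gabarapl2 (1.47), Gabarap (1.10) and Atg16l1 (0.91). The calls were thus 4 larger and 2 smaller, 2 larger and 1 smaller, and 6 larger and 0 smaller of 13, where 15.7% and 15.4%, 8.59% and 10.1%, and 16.0% and 16.6% of all tested genes were called larger and smaller. Without number 1 no partner passed, nor in the fit on all 9 libraries.

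Several of the GTPases end in a motif to which cells attach a prenyl lipid, and 5 enzymes of that pathway were measured. Rce1, the protease that trims prenylated proteins, measured 549 CPM in MSA_ConA 1, 57.5 CPM in ConA 1 and 12.9 CPM in Control 1, and 7.27 to 11.9 CPM in the 6 other libraries. Its differences by number were 2.62 for ConA against Control, 3.36 for MSA_ConA against ConA and 5.99 for MSA_ConA against Control (adjusted p from 0.00035 to 0.00118 by edgeR). In numbers 2 and 3 alone its log2 fold changes were -0.48, -0.09 and -0.57, and over all 9 libraries 1.06, 2.94 and 4.00, and no enzyme of the list passed in either fit. Fnta was called lower for ConA against Control (-0.93). Fntb (-2.10), Pggt1b (-1.68) and Fnta (-0.81) were called lower for MSA_ConA against Control. Of the 5 enzymes, 1 was called higher and 1 lower for ConA against Control, where 15.7% and 15.4% of all tested genes were. For MSA_ConA against ConA 1 was called higher and 0 lower (8.59% and 10.1%). For MSA_ConA against Control 1 was called higher and 3 lower (16.0% and 16.6%). Of 10 genes that drive interferon gamma release, namely cytokines, receptor chains and the transcription factors Tbx21 and Eomes, 2 passed the filter over all 9 libraries, and Il12rb1 and Tbx21 passed it besides in numbers 2 and 3, where none was called. Il18r1, a receptor chain for interleukin 18, was called for ConA against Control (4.48, adjusted p = 0.0248 by edgeR) at 3.10 CPM in ConA 1, against 0.149 CPM on 2 counts in Control 1, and Il18 was not called (-1.27, adjusted p = 0.0688 by edgeR).

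Summed markers of neutrophils, NK cells, T cells and cholangiocytes were highest in ConA 1, as the family was, and those of Kupffer cells, monocytes, B cells, stellate cells and sinusoidal endothelium were not. The part of these cells in the results was not tested. The 6 neutrophil markers summed to 54.2, 4.15 and 4.53 CPM in MSA_ConA, 387, 5.46 and 2.73 CPM in ConA and 9.23, 6.63 and 3.48 CPM in the Control libraries. In ConA 1 most of it was S100a9 (261 CPM) and S100a8 (110.5 CPM), while the defining marker Ly6g was at 0 in MSA_ConA 1 and Control 1 and at 1.93 CPM in ConA 1. The 6 NK cell markers summed to 0.658, 2.43 and 2.37 CPM in MSA_ConA, 14.8, 2.42 and 2.04 CPM in ConA and 2.68, 2.77 and 1.72 CPM in Control, with Ncr1, Klre1 and Prf1 at 0 in MSA_ConA 1. In ConA 1 most of it was Gzma (8.90 CPM) and Nkg7 (3.39 CPM), while the defining marker Ncr1 was at 0.0967 CPM and Klre1 at 0. The 8 T cell markers summed to 4.26 to 6.43 CPM in MSA_ConA, 4.88 to 11.3 CPM in ConA and 5.30 to 6.93 CPM in Control, with Cd3d, Cd8a and Cd8b1 at 0 in MSA_ConA 1 and Cd3e there at 2.11 CPM, its highest of the 9 libraries. In ConA 1 the largest part was Lck (5.51 CPM), with Cd3e at 0.484 CPM and Cd3g at 0.290 CPM. Kupffer cell markers, 6 of 6 in the table and none at 0, summed to 119 to 250.3 CPM in MSA_ConA, 180 to 196 CPM in ConA and 205 to 330.4 CPM in the Control libraries. MSA_ConA 1 held the lowest of these Kupffer cell sums. Single Kupffer cell markers went both ways in ConA 1. Marco was at its highest of the 9 libraries there (59.1 CPM), and Clec4f (51.4 CPM), Vsig4 (6.58 CPM) and Timd4 (2.90 CPM) were at their lowest.

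Of the other marker lists, monocyte markers (5 of 6 in the table) summed to 21.1 to 58.7 CPM in MSA_ConA, 49.6 to 50.3 CPM in ConA and 48.3 to 67.5 CPM in Control, with Itgam at 0 in 8 of the 9 libraries. Among them, Chil3 (11.8 CPM) and Fcgr1 (5.71 CPM) were at their highest in ConA 1 and Ccr2 (0.871 CPM) at its lowest. Sinusoidal endothelial markers summed to 136 to 252 CPM in MSA_ConA, 175 to 198 CPM in ConA and 181 to 226 CPM in the Control libraries. Here too ConA 1 held the highest Cdh5 (61.0 CPM) and the lowest Stab2 (34.3 CPM). Stellate cell markers summed to 186 to 439 CPM in MSA_ConA, 301 to 359 CPM in ConA and 172 to 308 CPM in the Control libraries. B cell markers summed to 3.95 to 4.79 CPM in MSA_ConA, 3.58 to 4.49 CPM in ConA and 4.11 to 9.23 CPM in the Control libraries. Cholangiocyte markers summed to 41.3, 4.26 and 8.18 CPM in MSA_ConA, 652, 7.10 and 7.27 CPM in ConA and 11.5, 5.69 and 6.29 CPM in Control, nearly all of it Sox9 in ConA 1 (634 CPM). Adipocyte markers summed to 443, 3.04 and 54.4 CPM in MSA_ConA, 53.4, 61.8 and 3.63 CPM in ConA and 3.87, 5.27 and 2.60 CPM in Control, with Adipoq, Plin1 and Lep at 0 in all 3 libraries numbered 1. Skeletal muscle markers summed to 121 CPM in MSA_ConA 1, 2.90 CPM in ConA 1 and 1.56 CPM in Control 1. In MSA_ConA 1 nearly all of it was Atp2a1 (118.9 CPM), with Ckm, Myh4, Myh2 and Myl1 at 0.

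Across all 9 libraries the genes most like the mean of the 9 members on the log2(CPM + 1) scale were Cd274 (Pearson r = 0.991), F3 (0.988), Crp (0.985), Ezr and Samhd1 (each 0.982), Parp12 (0.980), Ifit2 (0.977) and Notch1 (0.976), among 9387 genes of at least 5 CPM on average. The points share libraries and scaling, and the level in ConA 1 dominates them. Over the 6 libraries numbered 2 and 3 none of these was among the 8 most alike, which were Cnih1 (0.982), BC068281 (0.977), Srp19 (0.976), Zfp329 (0.973), Mlkl (0.970), Htatsf1 (0.969), Taf1b (0.967) and Snrpe (0.966). Among the members themselves, 30 of the 36 pairs correlated positively over those 6 libraries, with a median r of 0.44 and a range of -0.384 to 0.958. The closest were Gbp7 with Irgm2 (0.958), Gbp7 with Irgm1 (0.934) and Irgm1 with Irgm2 (0.911), genes on 2 chromosomes that are highest together in MSA_ConA 2. These values describe 6 libraries and carry no test.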

How the data were processed

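Per the labels' protocols, liver RNA was extracted with Trizol and libraries were made with an Illumina kit from total RNA. The authors deposited raw gene counts and, in a second table, FPKM. The submitters' processing notes name the aligner Bowtie 0.12.2 with mm8 and mm10 and give none of them a role. For counting, strand and read length the sources used here give nothing. Gene identifiers are those of the C57BL/6NJ assembly.

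Libraries were grouped by title, and columns headed M were matched to MSA_ConA. Labels give 3 mice per group and no batch, so a p-value here reflects only how these libraries spread, which may be technical. Counts were tested with edgeR 4.0.16 (R 4.3.3): quasi-likelihood, TMM, the default filter by group, 9 libraries with 6 residual degrees of freedom, and Benjamini-Hochberg adjusted p under 0.05 over all genes tested. A second model gave each group 1 mean for number 1 and 1 for numbers 2 and 3, and another fit used only numbers 2 and 3. CPM were the counts scaled by TMM. Single-library ratios carry exact 95% limits of 2 counts, which cover counting error only, and 3 counts (0.154 to 0.395 CPM) were taken as the limit that a count of 0 allows. The steps were tested on simulated counts whose spread came from the second model. That spread leaves out the difference of number 1 from the others, so the simulation does not check the fit on all 9 libraries at its real spread.

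The 9 members, the 8 pathway lists and the 12 marker lists (140 of 158 entries matched with the label check genes) were chosen with earlier results of these data known, as was the division by number. All 9 members were named, with list members called in a comparison and the 8 most similar genes. Alternatives were RLE, library totals, DESeq2 1.42.0, limma-voom (limma 3.58.1), no filter, a minimum of 1 CPM in 3 libraries, the library number as a block, limma on log2(FPKM + 1) or log2(FPKM + 0.1), and leaving out each library.

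Pairing by number was checked on deviations from group means. Pearson's r between libraries of the same number was 0.489 to 0.720 (number 1), 0.364 to 0.575 (number 2) and 0.337 to 0.493 (number 3), above 0.1 for every pair. Numbers 2 and 3 correlated with each other at 0.332 to 0.706, and number 1 with number 2 at -0.691 to -0.396 and with number 3 at -0.666 to -0.394. Where number 1 stands apart, centring on a group mean puts numbers 2 and 3 on the same side. Their positive values therefore cannot show pairing by number. Protein sequences were not used here, and 1 gene of the signalling list is not reported here.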

Additional observations from a re-analysis of the deposited data

Results flagged for a closer look

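The results below are listed because the effect of treatment in the libraries numbered 1 differed from that in numbers 2 and 3, in an edgeR test of the difference itself (Benjamini-Hochberg, adjusted over all genes). Values are log2 differences, the effect in number 1 minus that in numbers 2 and 3. For ConA against Control they were 7.92 for Gbp2, 7.25 for Gbp5, 5.46 for Gbp3, 3.62 for Gbp4, 3.44 for Irgm1, 3.38 for Gbp7, 2.39 for Igtp and 1.14 for Irgm2. For MSA_ConA against ConA they were -8.61 for Gbp2, -7.46 for Gbp5, -6.66 for Gbp4, -6.13 for Gbp3, -5.91 for Igtp, -5.15 for Irgm1, -4.83 for Gbp7 and -3.97 for Irgm2. For MSA_ConA against Control they were -3.52 for Igtp, -3.04 for Gbp4, -2.83 for Irgm2, -1.71 for Irgm1 and -1.45 for Gbp7. Many other genes were called too. Of all tested genes, 15.7% were called larger for ConA against Control, 10.1% lower for MSA_ConA against ConA and 16.6% lower for MSA_ConA against Control. The call of Irgm2 for ConA against Control was lost with library totals in place of TMM (adjusted p = 0.0796 by edgeR). The 3 contrasts share libraries. Number 1 also differs from the others in transcripts of sex and strain, which cannot be told apart here from what else the number marks.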

How the results depend on the processing

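Many log2 fold changes of single genes changed direction without the libraries numbered 1. In the 6 libraries numbered 2 and 3, ConA against Control turned to -0.21 for Gbp3, -0.17 for Igtp and -0.018 for Irgm1. MSA_ConA against ConA turned to 0.27 for Gbp2, 0.58 for Gbp3, 0.43 for Gbp4, 0.24 for Gbp5, 0.55 for Gbp7, 0.24 for Igtp, 0.30 for Irgm1, 0.30 for Irgm2 and 0.20 for Iigp1. MSA_ConA against Control turned to 0.066 for Igtp, 0.28 for Irgm1 and 0.36 for Irgm2. That last comparison also turned for Irgm2 with library totals (0.082), for Irgm1 with the replicate block (0.065), and for Gbp4 with limma-voom (-0.18), with limma on log2(FPKM + 1), filtered or not (-0.089), and on log2(FPKM + 0.1) (-0.35); the cause was not tested. Leaving out 1 library at a time gave ranges that crossed 0. For ConA against Control this held for Igtp (-0.13 to 1.45), and for MSA_ConA against ConA for Gbp3 (-3.42 to 0.21), Gbp7 (-1.23 to 0.031) and Iigp1 (-3.30 to 0.12), each without ConA 1. For MSA_ConA against Control it held for Gbp2 (-0.27 to 0.53), Gbp3 (-0.25 to 0.60), Gbp4 (-0.55 to 0.55), Igtp (-0.87 to 0.087), Irgm1 (-0.39 to 0.29) and Irgm2 (-0.53 to 0.47), and for the difference by number for Gbp5 (-0.51 to 0.075). DESeq2 called 2 genes for ConA against Control and 55 for MSA_ConA against Control, where edgeR called 0, and gave no p for Gbp2, Gbp3, Gbp5 and Irgm1. The number of genes whose MSA_ConA against ConA effect differed by number was 2724 with edgeR, 1623 with limma-voom, and 1368 to 2403 without 1 library, with 1631 without ConA 2 and 1368 without ConA 3. Gbp7 was not called for MSA_ConA against Control by number with limma-voom (adjusted p = 0.0867), and Gbp3 was called there with library totals (adjusted p = 0.0335). Iigp1 was called without the filter for ConA against Control (adjusted p = 0.0110) and MSA_ConA against ConA (adjusted p = 0.00384). The library number as a replicate block left 0 genes called in each group comparison (637, 129 and 1096 at an unadjusted p under 0.05, with 563, 248 and 730 without it) and changed no call of a member; by number it called 3622, 1842 and 3926 genes. Depth limits Gbp5 and Iigp1 most, with 9 to 92 counts in 8 of 9 libraries.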
